A study of Homo sapiens with 48 samples.

Results

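The question was which changes that follow depletion of UPF1 are undone when the cells also carry wild-type UPF1. It was read from 12 of the 48 RNA-seq libraries of the study, in 4 of its 16 groups of 3. All groups were Flp-In 293 T-REx cells, a line derived from human embryonic kidney HEK293 cells that accepts a transgene at a single genomic site and carries a tetracycline repressor. One stable line expressed the CLIP protein tag alone (CLIP), and the other expressed wild-type UPF1 fused to that tag (CLIP-UPF1 WT, here WT). Each line was transfected for 72 h with 40 nM of a non-targeting siRNA (siNT) or of an siRNA against endogenous UPF1 (siUPF1), and all 4 groups were grown with hygromycin B before transfection. Each genotype was 1 line, so a difference between the 2 lines cannot be told apart from the history of the lines. The labels used here name no inducer of the transgene, and do not say whether its RNA resists the siRNA. The replicates are described as biological. The p-values use 1 spread between replicates per gene, pooled over all 48 libraries, and do not measure the spread within the 4 groups alone. The CLIP siUPF1 group, in which replicate 2 stood apart, enters with that pooled spread.

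UPF1 is an RNA helicase at the centre of nonsense-mediated decay (NMD). This pathway destroys transcripts on which a ribosome stops at a premature or otherwise unusual stop codon. The kinase SMG1 phosphorylates UPF1, UPF2 and the UPF3 proteins link it to exon junction complexes left downstream of the stop, and SMG5 and SMG6 help to bring about the cleavage or decay of the RNA. NMD also lowers many normal transcripts, among them those of several NMD factors, of stress regulators such as ATF4, and of the non-coding genes that host small nucleolar RNAs in their introns.

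For each gene the response in a line is the log2 fold change from siNT to siUPF1. The interaction is the response in WT minus the response in CLIP. The threshold for a call was 0.05 on the p-value of edgeR's quasi-likelihood test, adjusted by the Benjamini-Hochberg method over 19129 genes. That test is the source of every adjusted p given here. A rise or fall in CLIP was counted as reversed where the interaction was called in the opposite direction. The responses in CLIP and in WT share no library, whereas the interaction and the response in CLIP share the 6 CLIP libraries, so that the same noise enters both. Levels are CPM, counts scaled to the normalised library total, SE is the standard error of the fit, and intervals are 95% confidence intervals.

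UPF1 itself was at 105, 106 and 113 CPM in CLIP siNT, 18.2, 36.8 and 17.7 in CLIP siUPF1, 5188, 5033 and 5639 in WT siNT and 4328, 4348 and 5857 in WT siUPF1. The 3 CLIP siUPF1 libraries lay below every CLIP siNT library, and the 3 in WT overlapped. The response was -2.17 (SE 0.17) in CLIP, with an adjusted p of 4.83e-13, and -0.13 (SE 0.16) in WT, with an adjusted p of 0.622. With siNT the WT libraries were higher by 5.61 on the log2 scale. Transgene and endogenous reads share 1 row of the table, so the depletion of endogenous UPF1 in WT cannot be read from these values, and the protein was not measured.

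The 12 libraries held between 21.3 M and 38.5 M expected counts each. CLIP siUPF1 replicate 2 stood apart from the other libraries. Its UPF1 level was above that of replicates 1 and 3, and mitochondrially encoded genes took 0.631% of its counts, against 1.89% to 2.64% in the other 11. Its deviation from the CLIP siNT mean followed the GC content of the genes, with a Spearman coefficient across 11665 genes of 0.73, against 0.14 and 0.31 in replicates 1 and 3. In WT siUPF1 the same coefficients were -0.05, 0.01 and 0.49, the last in replicate 3. Results that rest on CLIP siUPF1 replicate 2 are given with and without it. Each of 6 HEK293 markers had counts in all 12 libraries, NEFM at 0.823 to 2.45 CPM and the other 5 above 30 CPM, with summed levels of 1055 to 1102 CPM in CLIP siNT, 1133 to 1610 in CLIP siUPF1, 1041 to 1142 in WT siNT and 1105 to 1311 in WT siUPF1. The 16 markers of other cell types summed to between 77.0 and 114 CPM, mostly EPCAM, and the endothelial markers PECAM1 and CDH5 were at 0 in all 12 libraries.

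Without UPF1 depletion the lines were close. With siNT, 6 of 19129 genes (0.0314%) differed between WT and CLIP, and 679 had an unadjusted p under 0.05. Without CLIP siNT replicate 2 the number called was 3. UPF1, TENM1 and NPAS4 were higher in WT, and CEBPE, BMP2 and PVRL3 were lower. With siUPF1, 5410 genes (28.3%) differed between the lines. Of the genes with a called interaction, 1 also differed with siNT and 2221 of 2267 differed with siUPF1 in the direction of the interaction. Their median absolute difference between the lines was 0.09 with siNT and 0.66 with siUPF1, on the log2 scale. The interaction is the difference with siUPF1 minus that with siNT, from the same libraries, so this split is a description and not a test. By these medians most of the size of the called interactions lay in levels with siUPF1.

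With siUPF1, 9066 genes (47.4%) changed in CLIP, of which 4798 rose (25.1%) and 4268 fell (22.3%). In WT 5211 genes (27.2%) changed, 2670 up (14%) and 2541 down (13.3%). The interaction was called for 2267 genes (11.9%), 722 higher (3.77%) and 1545 lower (8.08%) in WT. Over all genes tested the median interaction was 0.01. Without CLIP siUPF1 replicate 2 the interaction was called for 1982 genes (10.4%), 549 higher (2.87%) and 1433 lower (7.49%), and 1511 of them were among the 2267. It was called for 3815 genes without CLIP siUPF1 replicate 1, for 3513 without replicate 3, and for 522, all among the 2267, when the 12 libraries were fitted alone.

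Of the 4798 genes that rose in CLIP, 1391 (28.99%) were reversed in WT. Among these, 972 had no called response in WT, 315 still rose and 104 fell. Of the 4268 genes that fell in CLIP, 572 (13.4%) were reversed, of which 397 had no called response in WT, 142 still fell and 33 rose. UPF1, whose row includes the transgene reads, was counted among the 397. The gene sets differed in part without CLIP siUPF1 replicate 2. Then 7864 genes (41.1%) were called in CLIP, 4239 up (22.2%) and 3625 down (19%). Of these rises 1230 and of these falls 402 (11.1%) were reversed, and 980 of the rises and 304 of the falls were the same genes as before. The counts were higher without either of the other CLIP siUPF1 libraries. Without replicate 1, 2035 rises (40.0%) and 1243 falls (28.0%) were reversed, and without replicate 3 the counts were 1848 (37.2%) and 1190 (28.1%). Reversed falls numbered 373 without WT siNT replicate 2. With the 12 libraries fitted alone, 403 of 3409 rises (11.8%) and 86 of 2754 falls (3.12%) were reversed. When a term for the replicate number within each line was added to the fit, 1831 of 5092 rises (36.0%) and 1168 of 5041 falls (23.2%) were reversed.

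Much of the response to siUPF1 was also present in WT. Whether these shared changes came from depletion of UPF1 was not tested. Of the rises in CLIP, 1999 (41.7%) were called rises in WT, and these were 74.9% of all rises in WT. Of the falls in CLIP, 1776 (41.6%) were called falls in WT, 69.9% of all falls there. A further 1723 rises and 2062 falls in CLIP had neither a called interaction nor a called response in WT. Whether they were reversed was not resolved by this fit with 3 libraries a group. Among genes past 2-fold in CLIP, 457 of 1063 rises (43.0%) and 177 of 1050 falls (16.9%) were reversed. Their median response went from 1.31 in CLIP to 0.52 in WT for rises, and from -1.35 to -0.84 for falls. Without CLIP siUPF1 replicate 2 the shares were 43.4% of 731 rises and 12.6% of 926 falls. They were 55.1% of rises and 29.7% of falls without replicate 1, and 49.4% and 30.9% without replicate 3. The difference between these shares was not tested. The 2-fold falls had a median level of 1.42 CPM and a median SE of the interaction of 0.40, against 7.07 CPM and 0.27 for the rises, and their part in the difference was not tested.

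**Figure D1:**
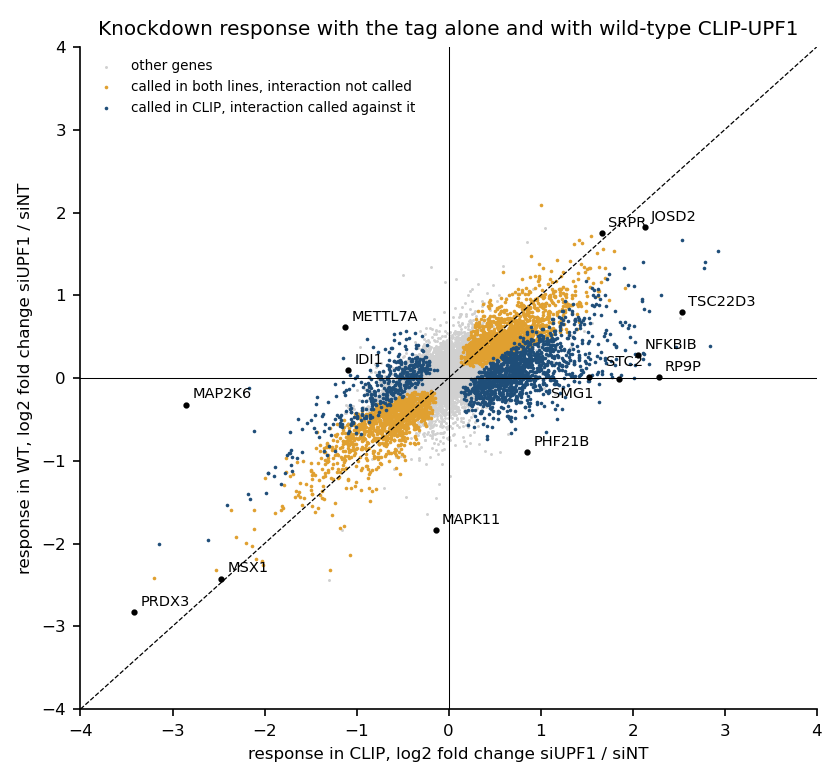
Response to siUPF1 in CLIP (horizontal axis) against WT (vertical axis), both as log2 fold changes, for 11909 genes at 5 CPM or more on average, 1 of them outside the axes. The dashed line marks equal responses. RP9P, SMG1 and STC2 lie near 0 on the vertical axis, and SRPR and MSX1 lie on the dashed line.

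The response left in WT grew with the size of the response in CLIP and stayed smaller than it. For the 2564 genes with a log2 fold change between 0.5 and 1 in CLIP the medians were 0.69 in CLIP and 0.29 in WT. For the 161 genes above 2 they were 2.48 and 0.83. For the 2445 genes between -1 and -0.5 the medians were -0.67 and -0.32, and for the 165 genes below -2 they were -2.40 and -1.33. Genes were binned on the CLIP values, and extreme values chosen in one set of libraries tend to be smaller in another, so the ratio of the medians is not a measure of rescue alone. Across the 11909 genes the 2 responses had a Spearman coefficient of 0.67 and a Pearson coefficient of 0.70, given as a description, since genes are not independent replicates.

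**Figure D2:**
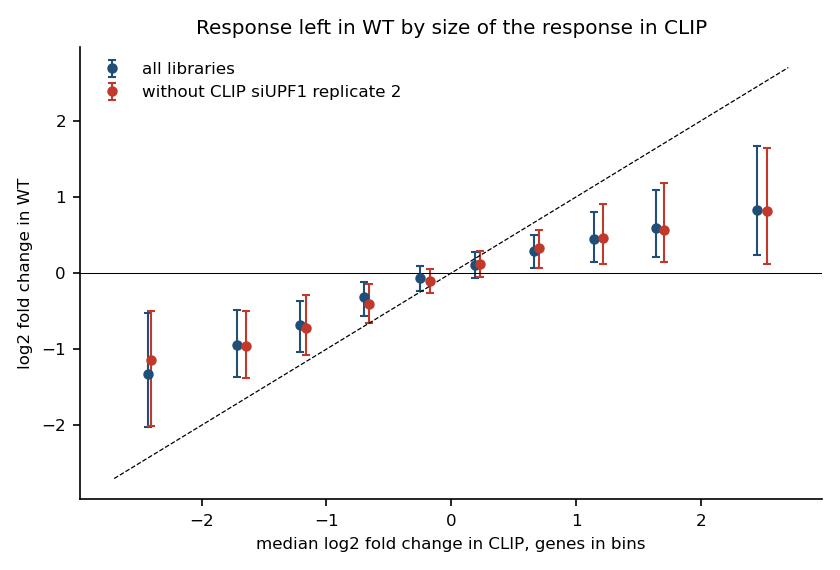
Median log2 fold change in WT (vertical axis) of genes binned by their log2 fold change in CLIP (horizontal axis, bin medians), with bars from the lower to the upper quartile. Blue and red points, shifted sideways by a small step to keep them apart, are with all libraries and without CLIP siUPF1 replicate 2, and the points lie between 0 and the dashed line of equal response outside the innermost bins.

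The messenger RNAs of the NMD machinery rose when UPF1 was depleted in CLIP, and most did not in WT. Of 9 NMD factors other than UPF1, 8 rose in CLIP, in WT 1 rose and 2 fell, and the interaction was lower for the same 8, with a median of -0.82. The same count was found without CLIP siUPF1 replicate 2. Over all genes tested, 25.1% rose in CLIP, 14% rose and 13.3% fell in WT, and the interaction was lower for 8.08%. SMG1, the kinase that phosphorylates UPF1, was at 344, 378 and 344 CPM in CLIP siNT, 1090.0, 983 and 995 in CLIP siUPF1, 379, 390.3 and 380.0 in WT siNT and 398, 414 and 348 in WT siUPF1. The CLIP siUPF1 libraries stood above all others. Its response was 1.52 (SE 0.08) in CLIP and 0.01 (SE 0.08) in WT, with an interval in WT of -0.15 to 0.17, and the interaction of -1.51 (SE 0.11) had an adjusted p of 4.82e-12. SMG5, an adaptor that recruits decay enzymes and a phosphatase, was at 182, 194 and 198 CPM in CLIP siNT, 297, 471 and 349 in CLIP siUPF1, 170.5, 189 and 191 in WT siNT and 132, 147 and 164 in WT siUPF1. It rose in CLIP by 0.96 and fell in WT, with a log2 fold change of -0.31 and an adjusted p of 0.0156. SMG9, a partner of the SMG1 kinase, likewise rose in CLIP by 0.83 and fell in WT, with -0.34 and an adjusted p of 0.00144.

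SMG6, the endonuclease of the pathway, had a response of 0.77 in CLIP and -0.20 in WT, where it was not called. The interaction was -0.82 for UPF3B and -0.72 for UPF2. UPF3A, the paralogue of UPF3B, still rose in WT, at 95.4, 95.8 and 90.04 CPM with siNT and 119, 117 and 111 with siUPF1. Its response was 0.65 in CLIP and 0.31 in WT, and the interaction of -0.34 had an adjusted p of 0.0012. SMG8, the other partner of SMG1, was called in no comparison of responses, with log2 fold changes of -0.12 in CLIP and -0.13 in WT.

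**Figure D3:**
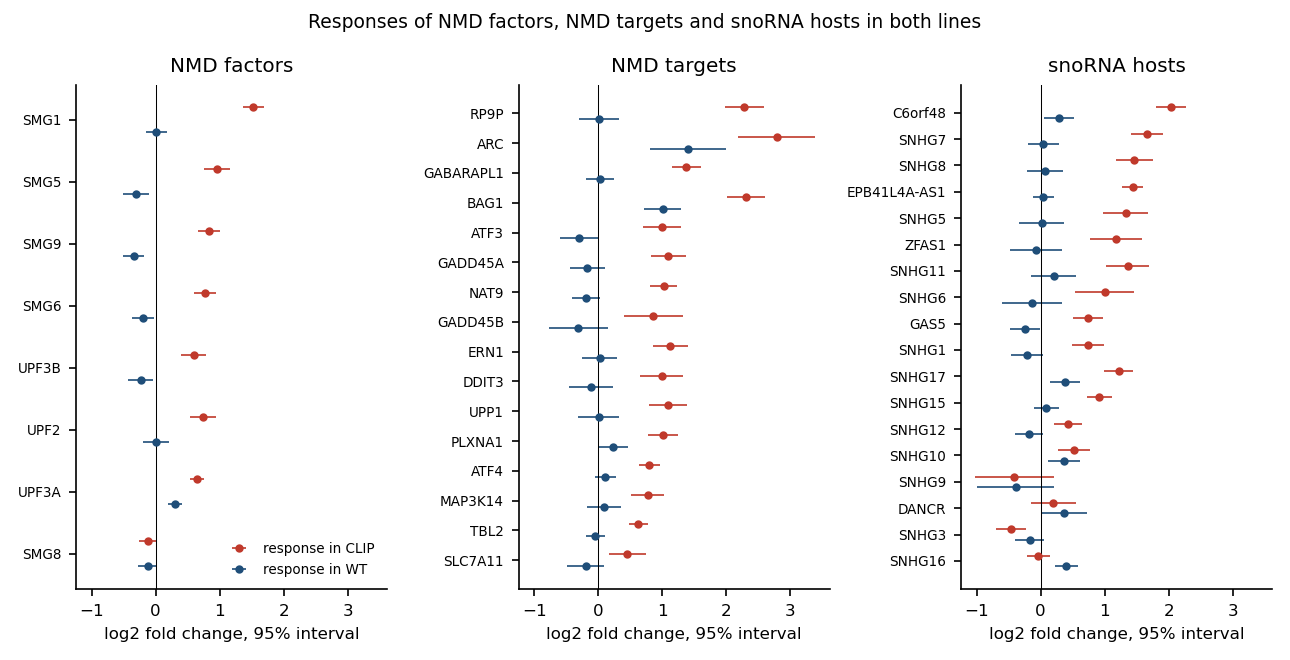
Log2 fold change from siNT to siUPF1 (horizontal axis) with its 95% interval in CLIP (red) and WT (blue) for 8 NMD factors, 16 NMD targets and 18 snoRNA hosts, ordered by interaction. Of 9 NMD factors tested 1 is not shown. The intervals of SMG1, RP9P and SNHG7 are apart between the lines, and those of SMG8 overlap.

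Transcripts commonly used to read out NMD were reversed as a group. All 16 on the list rose in CLIP, and the interaction was lower for all 16, with a median of -1.14, against a median of 0.01 over all genes. In WT 2 of the 16 rose and none fell. The shares over all genes were 25.1% for rises in CLIP, 14% for rises in WT and 8.08% for a lower interaction. The interaction was called for 14 of 16 without CLIP siUPF1 replicate 2. The exceptions were ARC, with an adjusted p of 0.101, and MAP3K14, with 0.0703. The list was chosen with results of these libraries known and is not independent evidence of its direction.

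RP9P, a transcribed pseudogene of RP9 whose reads may be shared with the parent gene, was at 6.34, 6.63 and 7.31 CPM in CLIP siNT, 37.9, 23.3 and 37.5 in CLIP siUPF1, 5.83, 6.69 and 6.99 in WT siNT and 7.56, 7.77 and 4.06 in WT siUPF1. Every CLIP siUPF1 library was above every other library. The response was 2.28 (SE 0.15) in CLIP and 0.01 (SE 0.15) in WT, and the interaction was -2.27 (SE 0.21) with an adjusted p of 3.34e-10. GABARAPL1, an autophagosome protein of the ATG8 family, was at 42.4, 48.4 and 40.7 CPM in CLIP siNT, 133, 87.8 and 121 in CLIP siUPF1, 44.6, 45.9 and 42.9 in WT siNT and 47.9, 49.2 and 38.1 in WT siUPF1. Its level in WT siUPF1 overlapped that in WT siNT, and the interaction was -1.36 (SE 0.15).

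The interaction was also lower for the stress-response genes on the list. ATF4, a transcription factor whose mRNA carries upstream open reading frames, was at 759, 764 and 809 CPM in CLIP siNT, 1294, 1378 and 1388 in CLIP siUPF1, 840.2, 869 and 905 in WT siNT and 872, 894 and 1054 in WT siUPF1. Its interaction was -0.69 (SE 0.11), with an adjusted p of 3.23e-05. ATF3 and DDIT3, transcription factors induced by stress, had interactions of -1.30 and -1.10, and GADD45A and GADD45B, growth-arrest genes, had -1.26 and -1.17. ERN1, the endoplasmic reticulum stress sensor IRE1, had -1.10.

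BAG1 and ARC were reversed only in part. BAG1, a co-chaperone of HSP70, was at 47.01, 45.9 and 49.6 CPM in CLIP siNT, 174, 302 and 228 in CLIP siUPF1, 46.1, 50.1 and 54.8 in WT siNT and 85.2, 89.6 and 129 in WT siUPF1. The WT siUPF1 libraries lay between WT siNT and CLIP siUPF1. The response was 2.30 in CLIP and 1.004 (SE 0.14) in WT, with an interaction of -1.30 (SE 0.20). ARC, a neuronal immediate early gene whose mRNA is a known NMD target, was at 3.28, 3.63 and 2.83 CPM in CLIP siNT, 14.8, 31.8 and 20.8 in CLIP siUPF1, 3.78, 5.15 and 4.35 in WT siNT and 9.34, 9.499 and 16.9 in WT siUPF1. Its response was 2.78 in CLIP and 1.41 in WT, called in both. The interaction of -1.38 had an adjusted p of 0.0225. It was not called without CLIP siNT replicate 3, CLIP siUPF1 replicate 2, WT siNT replicate 2, or WT siUPF1 replicate 1 or 2, with adjusted p between 0.0614 and 0.101, nor in the 12 libraries alone, with 0.107.

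Host genes of small nucleolar RNAs followed the same course. Their spliced RNAs carry short open reading frames and are degraded by NMD. Of 23 hosts on the list 18 passed the filter on low counts. Of these, 14 rose and 1 fell in CLIP, and the interaction was lower for 13 and higher for 1, with a median of -0.96. Of all genes tested, 25.1% rose and 22.3% fell in CLIP, and the interaction was lower for 8.08% and higher for 3.77%. C6orf48, also known as SNHG32, was at 31.8, 34.6 and 31.3 CPM in CLIP siNT, 129, 117 and 153 in CLIP siUPF1, 41.4, 35.97 and 37.5 in WT siNT and 49.4, 42.8 and 48.2 in WT siUPF1. Its response was 2.03 (SE 0.12) in CLIP and 0.29 (SE 0.11) in WT, not called there with an adjusted p of 0.0551. The rise in WT was called without CLIP siUPF1 replicate 2, with an adjusted p of 0.046. SNHG7 was at 32.01, 36.2 and 32.5 CPM in CLIP siNT, 91.2, 120.2 and 108 in CLIP siUPF1, 38.9, 39.6 and 39.01 in WT siNT and 35.9, 32.8 and 52.9 in WT siUPF1, and SNHG8 at 16.7, 15.6 and 14.97 CPM in CLIP siNT, 35.2, 50.5 and 44.8 in CLIP siUPF1, 16.7, 17.2 and 14.4 in WT siNT and 17.8, 14.4 and 18.6 in WT siUPF1. In both genes the WT siUPF1 libraries overlapped WT siNT, and the interactions were -1.62 (SE 0.17) and -1.40 (SE 0.20).

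In 2 hosts CLIP siUPF1 replicate 2 went against its group. ZFAS1 was at 42.3, 40.7 and 37.6 CPM in CLIP siNT and 114, 35.8 and 124 in CLIP siUPF1, and SNHG6 was at 30.3, 30.6 and 27.1 and 78.00, 18.2 and 79.4. In both genes replicate 2 was below every siNT library. The interaction was -1.26 for ZFAS1 and -1.64 without that library, and -1.14 and -1.57 for SNHG6. C6orf48 and SNHG7 share over 25% of their exonic bases with other genes, SNHG7, ZFAS1 and EPB41L4A-AS1 lie opposite other genes, and the strand setting of the counting was not given, so their reads are uncertain. SNHG16 rose in WT alone, with 0.40 (SE 0.09) and an interaction of 0.44, which was not called without CLIP siUPF1 replicate 2, with an adjusted p of 0.0847. SNHG3 fell in CLIP, with -0.46, and its interaction was not called.

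Genes controlled by ATF4, which serve amino acid supply and the integrated stress response, were divided. Of 42 on the list, 23 rose and 8 fell in CLIP, and the interaction was lower for 16 and higher for none. The count was 10 without CLIP siNT replicate 1 and also without WT siUPF1 replicate 1. Of all genes tested, 25.1% rose and 22.3% fell in CLIP, and the interaction was lower for 8.08% and higher for 3.77%. STC2, a secreted glycoprotein induced by stress, was at 116, 131 and 145 CPM in CLIP siNT, 415, 482 and 515 in CLIP siUPF1, 145, 154 and 165 in WT siNT and 142, 136 and 182 in WT siUPF1. The response was 1.85 (SE 0.14) in CLIP and -0.01 (SE 0.13) in WT, with an interval of -0.28 to 0.26, and the interaction was -1.86 (SE 0.19). NUPR1, a stress-induced chromatin-associated protein, was at 3.57, 2.998 and 5.68 CPM in CLIP siNT, 10.00, 11.8 and 15.9 in CLIP siUPF1, 4.36, 3.91 and 5.36 in WT siNT and 2.81, 2.56 and 6.12 in WT siUPF1, with an interaction of -1.92 (SE 0.41). SESN2, an inhibitor of mTORC1 signalling, was at 38.2, 36.7 and 43.01 CPM in CLIP siNT, 122, 198 and 140.1 in CLIP siUPF1, 41.3, 40.8 and 45.6 in WT siNT and 63.7, 61.2 and 74.01 in WT siUPF1. It rose in both lines, by 1.96 in CLIP and 0.64 in WT, and its interaction was -1.32 (SE 0.18). SLC7A5, a transporter of large neutral amino acids, had an interaction of -1.14 (SE 0.23), and TRIB3, a pseudokinase, one of -1.05 (SE 0.27). FGF21, a secreted hormone, had the largest interaction on the list by size, -2.03 (SE 0.67), at a mean level of 0.223 CPM, and was not called, with an adjusted p of 0.052. It was called in 4 of the 12 fits that left out a library, with adjusted p down to 0.0324.

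The interaction was not called for other ATF4 targets that changed in both lines. PSAT1, an enzyme of serine synthesis, was at 143, 140.1 and 162 CPM in CLIP siNT, 74.4, 47.8 and 102 in CLIP siUPF1, 152, 142 and 169.9 in WT siNT and 78.1, 71.8 and 82.00 in WT siUPF1. It fell in both, with -0.98 in CLIP and -1.002 in WT, and its interaction was -0.02 (SE 0.20). The isoleucyl-tRNA synthetase gene IARS fell in both as well, with -0.46 and -0.38. JDP2 and CEBPB, transcription factors, rose in both. JDP2 had responses of 1.92 and 1.09, and an interaction of -0.83 with an adjusted p of 0.0673.

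**Figure D4:**
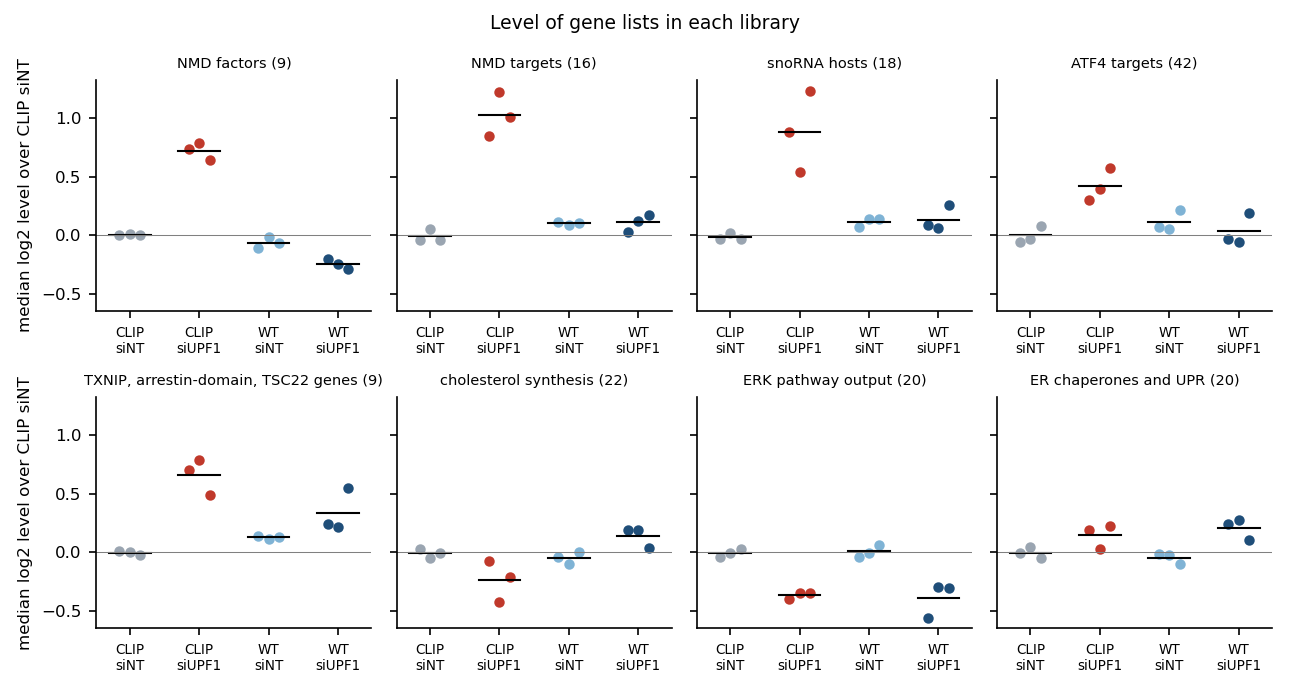
Median log2 level of the tested members of 8 gene lists in each library, relative to the mean of CLIP siNT (vertical axis), with 1 point per library and a line at the group mean. NMD targets lie between 0.85 and 1.22 in CLIP siUPF1 and between 0.03 and 0.18 in WT siUPF1.

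Among all genes raised in CLIP and reversed, those with the largest interaction at 5 CPM or more had varied roles. NFKBIB, an inhibitor of NF-kappa-B, was at 76.5, 79.7 and 87.4 CPM in CLIP siNT, 283, 403 and 329 in CLIP siUPF1, 69.4, 76.5 and 78.1 in WT siNT and 79.4, 85.7 and 106 in WT siUPF1. The CLIP siUPF1 libraries stood far above the rest, with a response of 2.06 (SE 0.11) against 0.28 (SE 0.11) in WT and an interaction of -1.78 (SE 0.15). The rise in WT had an adjusted p of 0.0513, or 0.0332 without CLIP siUPF1 replicate 2. ZFAND2A, an arsenite-inducible protein associated with the proteasome, was at 9.73, 10.2 and 9.06 CPM in CLIP siNT, 35.9, 25.3 and 44.6 in CLIP siUPF1, 10.1, 11.96 and 10.4 in WT siNT and 10.1, 11.1 and 12.2 in WT siUPF1, and its interaction was -1.83 (SE 0.18). UAP1L1 had an interaction of -1.76 (SE 0.31), DNAH17, an axonemal dynein heavy chain, -1.59 (SE 0.40), and VCPKMT, a methyltransferase that acts on the ATPase VCP, -1.56 (SE 0.25). DNAH17 was at 22.5, 48.3 and 21.9 CPM in CLIP siUPF1, and without replicate 2 its interaction was -1.13, with an adjusted p of 0.043. It was not called in the 12 libraries alone, with 0.0509.

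TSC22D3, a glucocorticoid-induced leucine zipper protein, was at 147, 142 and 182 CPM in CLIP siNT, 789, 816 and 1127 in CLIP siUPF1, 194, 169 and 247 in WT siNT and 345, 287 and 426 in WT siUPF1. It rose in both lines, by 2.54 in CLIP and 0.79 in WT, and was reversed in part, with an interaction of -1.74 (SE 0.24). Of 9 genes on the list of TXNIP, arrestin-domain and TSC22 genes, 6 rose in CLIP, 3 still rose in WT, and the interaction was lower for 4. TXNIP, an inhibitor of thioredoxin and of glucose uptake, was at 7.46, 9.08 and 5.72 CPM in CLIP siNT, 36.6, 35.01 and 29.5 in CLIP siUPF1, 10.2, 11.3 and 8.01 in WT siNT and 20.6, 17.5 and 13.5 in WT siUPF1, with an interaction of -1.36 (SE 0.29). Its relative ARRDC4 had -1.39 (SE 0.26). On the autophagy list the interaction was lower for 5 of 18 genes and higher for 1, and ULK1 and ATG4B, an initiating kinase and a protease of the pathway, had -0.70 and -0.76. Of 20 p53 targets, 10 rose and 3 fell in CLIP, 2 rose and 9 fell in WT, and the interaction was lower for 4. Beside these lists, 25.1% of all genes rose and 22.3% fell in CLIP, and 14% rose and 13.3% fell in WT. The interaction was lower for 8.08% of all genes and higher for 3.77%. PLK3, a kinase, went from 0.65 in CLIP to -0.48 in WT.

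Falls in CLIP that were reversed included MAP2K6 and genes of sterol synthesis. MAP2K6, a kinase that activates p38, was at 22.7, 21.04 and 18.5 CPM in CLIP siNT, 3.3, 2.92 and 2.46 in CLIP siUPF1, 19.7, 18.00 and 16.5 in WT siNT and 15.9, 14.7 and 12.7 in WT siUPF1. CLIP siUPF1 lay far below the other 9 libraries, with a response of -2.85 (SE 0.20). In WT the response was -0.32 (SE 0.17), not called with an adjusted p of 0.176, and the interaction was 2.53 (SE 0.26) with an adjusted p of 3.63e-09. PCDH18, a protocadherin, was at 7.43, 7.45 and 7.601 CPM in CLIP siNT, 1.76, 1.22 and 2.11 in CLIP siUPF1, 8.48, 6.87 and 6.86 in WT siNT and 5.6, 5.12 and 3.27 in WT siUPF1 and fell less in WT, with an interaction of 1.47 (SE 0.21). SLC1A1, a glutamate transporter, was at 20.4, 20.4 and 21.9 CPM in CLIP siNT, 7.79, 6.69 and 8.75 in CLIP siUPF1, 20.3, 21.1 and 22.2 in WT siNT and 18.5, 18.8 and 16.8 in WT siUPF1, with responses of -1.43 and -0.23. TMEM255A had an interaction of 1.38 (SE 0.21).

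Cholesterol synthesis genes supply sterols and isoprenoids, and in CLIP 11 of 22 fell and 6 rose. In WT 8 rose and 2 fell. The interaction was higher for 12 of 22 and lower for none, with a median of 0.42, and the same count was found without CLIP siUPF1 replicate 2. Of all genes tested, 22.3% fell and 25.1% rose in CLIP, and 14% rose and 13.3% fell in WT. Their interaction was higher for 3.77% and lower for 8.08%. IDI1, an isomerase of the isoprenoid pathway, was at 116, 111 and 113 CPM in CLIP siNT, 65.6, 35.5 and 58.6 in CLIP siUPF1, 112, 104 and 115 in WT siNT and 125, 123 and 105 in WT siUPF1. Its response was -1.09 (SE 0.12) in CLIP and 0.09 (SE 0.12) in WT, and the interaction was 1.18 (SE 0.17), or 0.95 without replicate 2. SQLE, squalene epoxidase, was at 124, 123 and 134 CPM in CLIP siNT, 90.3, 65.8 and 85.7 in CLIP siUPF1, 124, 112 and 132 in WT siNT and 152, 144 and 131 in WT siUPF1, with an interaction of 0.87 (SE 0.12). INSIG1, a sterol-regulated retention protein, had 0.75 (SE 0.13). The fall of HMGCS1 in CLIP was larger in replicate 2, at 149, 61.3 and 133 CPM in CLIP siUPF1, and its interaction was 0.83 with that library and 0.52 without it. The fatty acid desaturase FADS2 fell in both, with -3.14 in CLIP and -2.01 in WT, and its interaction was 1.13.

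Several of the strongest responses were called in both lines without a called interaction. PRDX3, a mitochondrial peroxiredoxin, was at 121, 108 and 124 CPM in CLIP siNT, 9.02, 5.64 and 17.7 in CLIP siUPF1, 115, 103 and 116 in WT siNT and 12.7, 13.2 and 21.8 in WT siUPF1. Every siUPF1 library of either line was below every siNT library. The response was -3.42 (SE 0.24) in CLIP and -2.82 (SE 0.23) in WT, and the interaction had an interval of -0.05 to 1.24. MSX1, a homeobox transcription factor, was at 28.2, 26.5 and 31.9 CPM in CLIP siNT, 3.44, 7.63 and 4.72 in CLIP siUPF1, 28.7, 27.4 and 35.1 in WT siNT and 4.72, 4.87 and 7.705 in WT siUPF1, and its interaction had an interval of -0.48 to 0.57. HRSP12 and LOX, the latter an enzyme that cross-links collagen, had responses of -3.20 and -2.53 in CLIP and -2.42 and -2.32 in WT. For HRSP12 the interval of the interaction, 0.04 to 1.53, lay above 0, although its adjusted p was 0.168. When CLIP siUPF1 replicate 3 was left out the interaction was called for both PRDX3, at 1.17 with an adjusted p of 0.00392, and HRSP12, at 1.40 with 0.00881. With no filter on low counts it was called for both as well, with adjusted p of 0.00506 and 0.0117, so a smaller fall of these genes in WT depends on the processing.

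SRPR, a subunit of the receptor that docks ribosomes at the endoplasmic reticulum, was at 47.2, 47.4 and 44.2 CPM in CLIP siNT, 143, 180.3 and 119 in CLIP siUPF1, 47.1, 49.4 and 42.9 in WT siNT and 164, 185 and 119.5 in WT siUPF1. It rose in both lines, with 1.67 (SE 0.13) in CLIP and 1.75 (SE 0.13) in WT, and the interval of the interaction was -0.28 to 0.44. MCOLN1, a lysosomal cation channel, had responses of 1.67 and 1.56, JOSD2, a deubiquitinase, 2.13 and 1.82, and NR6A1, an orphan nuclear receptor, 1.55 and 1.72. The intervals of their interactions were -0.49 to 0.26, -0.85 to 0.24 and -0.55 to 0.90. A call that was missed does not show equal responses, and the width of these intervals sets what could be seen.

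**Figure D5:**
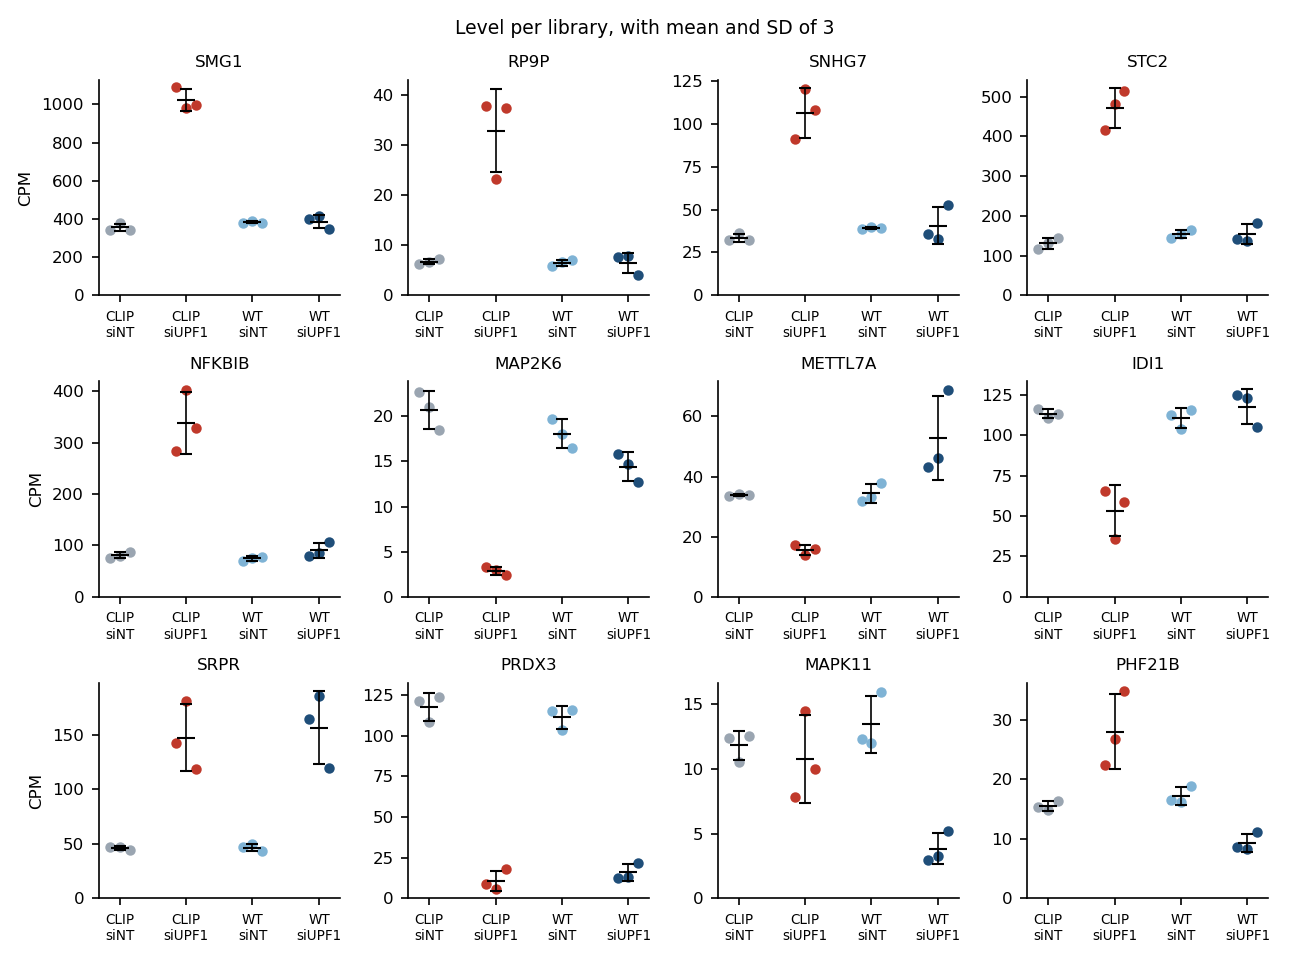
CPM of 12 genes in each library (points), with the mean and SD of 3 libraries, in the 4 groups. SMG1, RP9P, SNHG7, STC2 and NFKBIB are high in CLIP siUPF1 alone, MAP2K6, METTL7A and IDI1 are low there, SRPR and PRDX3 shift in both lines, and MAPK11 is low in WT siUPF1.

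Outputs of the ERK pathway and genes of the endoplasmic reticulum were set beside all genes tested. Of all genes, 25.1% rose and 22.3% fell in CLIP, and 14% rose and 13.3% fell in WT. Their interaction was lower for 8.08% and higher for 3.77%. Of 20 ERK outputs, 9 fell in CLIP and 10 in WT, and the interaction was lower for 4 and higher for 1. ETV5, a transcription factor, was at 26.8, 28.3 and 35.6 CPM in CLIP siNT, 10.7, 8.15 and 17.6 in CLIP siUPF1, 19.7, 23.3 and 26.9 in WT siNT and 2.92, 4.13 and 6.21 in WT siUPF1. It fell in CLIP, with -1.30 (SE 0.21), and further in WT, with -2.44 (SE 0.23). SPRY4, a feedback inhibitor, did the same, with -1.48 and -2.58. DUSP6, an ERK phosphatase, fell in both lines without a called interaction, with -0.85 and -1.14. Of 20 genes for chaperones and stress signalling of the endoplasmic reticulum, 7 rose and 1 fell in CLIP, and 11 rose in WT. The interaction was lower for 2, EDEM1 and XBP1, a count near the share over all genes. Of all rises in CLIP, 28.99% were reversed. XBP1 was not called without CLIP siUPF1 replicate 2. HYOU1, a chaperone, was at 149.7, 166 and 147 CPM in CLIP siNT, 312, 529 and 336 in CLIP siUPF1, 147, 177 and 144 in WT siNT and 288, 304 and 324 in WT siUPF1, and its responses were 1.35 and 0.97.

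Some genes moved past their siNT level in WT. METTL7A, a methyltransferase-like protein of lipid droplets, was at 33.5, 34.3 and 33.8 CPM in CLIP siNT, 17.1, 13.8 and 15.8 in CLIP siUPF1, 31.95, 33.4 and 38.03 in WT siNT and 43.3, 46.3 and 68.9 in WT siUPF1. It fell in CLIP, with -1.12, and rose in WT, with 0.61. CNTN1, a neuronal adhesion molecule, and CCDC80 did so too, with interactions of 1.36 (SE 0.15) and 1.19 (SE 0.16). With siNT, CNTN1 was at 41.7, 39.9 and 40.6 CPM in WT against 30.2, 29.6 and 31.3 in CLIP, a difference that was not called. CCDC80 was at 9.27, 12.1 and 9.71 CPM in WT siNT and 13.4, 15.3 and 11.4 in WT siUPF1, and these libraries overlapped. PHF21B was at 15.4, 14.8 and 16.3 CPM in CLIP siNT, 22.4, 26.8 and 34.9 in CLIP siUPF1, 16.6, 16.2 and 18.9 in WT siNT and 8.55, 8.27 and 11.1 in WT siUPF1. It rose in CLIP and fell in WT, with 0.86 and -0.90. PEA15, a protein that binds ERK, was at 62.7, 66.5 and 68.5 CPM in CLIP siNT, 129, 103 and 139 in CLIP siUPF1, 59.1, 63.6 and 56.3 in WT siNT and 44.3, 49.5 and 37.3 in WT siUPF1, with an interaction of -1.35 (SE 0.13). TCHH rose in CLIP to 14.8, 38.5 and 15.1 CPM, highest in replicate 2, and its interaction was -1.71 with that library and -1.12 without it, and not called in the 12 libraries alone, with an adjusted p of 0.0625.

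In 119 genes the interaction was called higher with a rise in WT and no called response in CLIP, and in 129 it was called lower with a fall in WT. MAPK11, the p38 kinase p38-beta, was at 12.4, 10.5 and 12.5 CPM in CLIP siNT, 7.79, 14.4 and 10.01 in CLIP siUPF1, 12.3, 12.02 and 15.96 in WT siNT and 2.97, 3.3 and 5.23 in WT siUPF1. Its response was -1.84 (SE 0.23) in WT, and the interaction was -1.70 (SE 0.31). BSN, a presynaptic scaffold protein, fell in WT alike, with -1.64 (SE 0.23), and C19orf26 had -0.92 (SE 0.23), its interaction not being called in the 12 libraries alone, with an adjusted p of 0.115. In MAPK11 and BSN, CLIP siUPF1 replicates 1 and 3 lay below every CLIP siNT library, and replicate 2 did not. Without replicate 2 the responses in CLIP were -0.40 for MAPK11, -0.50 for BSN and 0.02 for C19orf26, none of them called. The interactions were then -1.46, -1.16 and -0.96, and were still called. Rises came from CYP4X1, a cytochrome P450, at 10.2, 9.59 and 9.01 CPM in WT siUPF1 against 5.25, 5.39 and 5.94 in WT siNT, from PCOLCE2, an enhancer of procollagen processing, with 0.71 (SE 0.11), and from the collagen gene COL3A1, with 1.19 (SE 0.23). The interaction of COL3A1 was 0.83 and not called without CLIP siUPF1 replicate 3 or WT siUPF1 replicate 3, with adjusted p of 0.0674 and 0.0793, nor was it in the 12 libraries alone, with 0.256. COL3A1 was also on the list of markers of other cell types.

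Annotation was compared between reversed genes and those that changed in both lines. Among coding genes, 55.3% of those raised and reversed had a transcript annotated as an NMD substrate (649 of 1173, Clopper-Pearson interval 52.4% to 58.2%). Among those raised in both lines and not reversed the share was 43.0% (665 of 1545, 40.6% to 45.6%), over all genes raised in CLIP it was 47.5%, and over all tested coding genes it was 41.8%. Of falls, 33.3% of those reversed had such a transcript and 39.2% of those not reversed. Without CLIP siUPF1 replicate 2 the 4 shares were 57.4%, 43.9%, 32.2% and 38.9%. An annotated intron after the stop codon was found in 5.41% of coding genes raised and reversed, 3.50% of those raised in both and 3.38% of all. Genes are not independent samples, the intervals cover counting error alone, and the difference between the shares was not tested.

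The median GC content was 55.0% for genes raised and reversed, 44.0% for those lowered and reversed, and 48.9% for all genes. The reversed genes were close to all genes raised in CLIP, at 55.0%, and all lowered there, at 44.2%. Rises and falls shared by both lines and not reversed had 53.3% and 46.3%. Without CLIP siUPF1 replicate 2, whose levels followed GC content, reversed rises and falls had 51.0% and 46.5%, and shared ones 52.4% and 46.2%. The part of that library's GC trend in these differences was not tested. Median 3′ UTR lengths were 1162 and 1644 bases for the reversed rises and falls, 1014 and 1329 for those shared by both lines, and 1080 for all genes.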

How the data were processed

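Total RNA depleted of ribosomal RNA was sequenced from 12 libraries of CLIP and WT cells, fitted together with the other 36 of the series. The authors deposited expected counts per gene, not normalised, for 57820 genes. Per the submitters' processing notes, cutadapt, STAR, RSEM and DESeq2 were used with the hg19 build; which versions, gene annotation and strandedness applied is not given in the sources used here. Groups and replicate numbers come from the labels.

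After rounding to whole numbers, the expected counts were modelled with edgeR 4.0.16 in R 4.3.3. Filtering with filterByExpr left 19129 genes. After TMM normalisation a quasi-likelihood model with 1 term for each of 16 groups was fitted to all 48 libraries, and 5 contrasts were tested: the interaction, the response in each line, and the difference between lines under each siRNA. P-values were adjusted by the Benjamini-Hochberg method over all genes. On simulated counts for 18839 genes, the interaction test recovered 25 of 100 genes changed by 0.5 log2 and 88 of 100 changed by 1, and called 5 of 18639 unchanged genes. Counts were drawn at the pooled spread with equal means in all groups, and only genes at 5 CPM or more were changed, in WT siUPF1. No outlying library was simulated, so these rates do not cover CLIP siUPF1 replicate 2 or weaker genes.

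Genes named by rank had at least 5 CPM, under 25% of exonic bases shared with other genes, and the same class (reversed, shared or WT alone) with and without CLIP siUPF1 replicate 2. By size of the interaction the 10 raised and 8 lowered genes that were reversed were taken, with 3 in each direction that were called against the CLIP direction and 3 in each direction called in WT alone. By the smaller response, 4 raised and 4 lowered in both lines were taken. The 3 members with the largest interaction on each of 4 lists (ATF4 targets, hosts of snoRNAs, NMD targets, NMD factors) were added without these limits. Some list members are not reported here by name and are included in the counts. Other list members that are named were chosen after their values were seen. The members and lists were chosen with earlier results of these data known. Gene types, GC content, UTR lengths and NMD transcripts came from GENCODE 29 on GRCh38, matched for 96.2% of tested genes; no coordinates were used. Alternatives were RLE scaling, DESeq2 1.42.0, no filter, the 12 libraries alone, replicate blocks, each library left out in turn and, chosen after seeing the data, offsets corrected for GC content. The smallest group has 3 libraries.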

Additional observations from a re-analysis of the deposited data

Results flagged for a closer look

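The responses of the 2 lines differed, by the test of the interaction, in 722 genes that were higher and 1545 that were lower in WT. This test flagged UPF1 itself (2.04) and the following genes, each with its interaction on the log2 scale. The UPF1 row also holds the transgene reads, so its value does not show the response of endogenous UPF1 in WT.

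Among genes that rose in CLIP and were reversed, the values were -1.92 for NUPR1, -1.86 for STC2, -1.83 for ZFAND2A, -1.78 for NFKBIB, -1.76 for UAP1L1, -1.75 for PHF21B, -1.74 for TSC22D3, -1.71 for TCHH, -1.59 for DNAH17 and -1.56 for VCPKMT. PEA15 had -1.35. Among NMD factors they were -1.51 for SMG1, -1.27 for SMG5 and -1.18 for SMG9. Among NMD targets and snoRNA hosts they were -2.27 for RP9P, -1.38 for ARC, -1.36 for GABARAPL1, -1.74 for C6orf48, -1.62 for SNHG7 and -1.40 for SNHG8.

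Among genes that fell in CLIP they were 2.53 for MAP2K6, 1.73 for METTL7A, 1.47 for PCDH18, 1.38 for TMEM255A, 1.36 for CNTN1, 1.19 for SLC1A1, 1.19 for CCDC80 and 1.18 for IDI1. Genes called in WT alone had 1.12 for COL3A1, 0.87 for PCOLCE2, 0.85 for CYP4X1, -1.70 for MAPK11, -1.41 for BSN and -1.38 for C19orf26.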

How the results depend on the processing

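No gene called in the interaction was called in the opposite direction under any alternative, though with no filter 1529 of the 2267 were called again. With the 12 CLIP and WT libraries alone, calls fell to 522 for the interaction, 2504 for WT, 3 with siNT and 2282 with siUPF1; reversed rises to 403 and falls to 86, shared rises to 827 and falls to 973, and snoRNA hosts, ATF4 targets and cholesterol genes to 7, 7 and 4. The siNT comparison had 10 calls with DESeq2 and 57 with no filter, where the NMD-transcript share of reversed rises was 51.2%. The median WT response of 2-fold falls was -0.91 with GC correction. Replicate numbers were not taken as pairs, since the labels name nothing shared and 4 of 6 same-numbered pairs of CLIP and WT correlated above 0.1 (all 3 in WT, at 0.33 to 0.41, and 1 in CLIP). Over all lines 19 of 24 did, and 18 of 24 correlated best with their own number, a hint from the data. With a replicate block within each line the interaction had 3612 calls, lowered and reversed genes numbered 1168, and the median WT response of falls was -0.81; with a shared replicate block there were 3202 calls and 912 such genes. Leaving out 1 library gave 1731 to 3815 interaction calls, 7864 to 9521 in CLIP, 4257 to 6338 in WT (the highest without CLIP siUPF1 replicate 2, with the same WT libraries), 3 to 6 with siNT and 3961 to 6956 with siUPF1; 1113 to 2035 reversed rises, 373 to 1243 reversed falls, 1421 to 1885 shared rises and 1382 to 1971 shared falls; 10 to 21 ATF4 targets, 10 to 13 cholesterol genes, 14 to 16 NMD targets and 12 to 13 hosts; NMD-transcript shares of 52.5% to 57.4% and 41.4% to 44.2%; and median WT responses of 0.44 to 0.57 and -0.93 to -0.68. The cause was not tested. Interactions that were never called changed sign for SRPR (-0.064 without CLIP siUPF1 replicate 3, -0.068 without WT siUPF1 replicate 2, up to 0.24 without another), NR6A1 (-0.11 and -0.024 without the same libraries, up to 0.45), MCOLN1 (0.12 with GC correction), LOX (-0.018 with GC correction) and MSX1 (-0.032 without CLIP siNT replicate 3, -0.19 and -0.041 without CLIP siUPF1 replicates 1 and 3, -0.024 without WT siNT replicate 2, -0.21 without WT siUPF1 replicate 3, up to 0.37). Of the other single-gene values, 803 kept their direction and side of the threshold, 12 lost and 10 gained a call. At this depth and with 3 libraries a group, a simulated interaction of 0.5 log2 was recovered for 25 of 100 genes. Those genes were at 5 CPM or more, and no outlying library was simulated.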

Other observations

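Counts for other gene groups stand against 11.9% of all genes with a called interaction, 3.77% higher and 8.08% lower. Of all genes, 25.1% rose and 22.3% fell in CLIP, and 13.3% fell in WT. Cytoplasmic ribosomal protein genes fell in CLIP in 50 of 87 cases and in WT in 10, and the interaction was higher for 2 and lower for none. Without CLIP siUPF1 replicate 2 the falls in CLIP numbered 31, and the interaction was higher for none and lower for 2. Proliferation genes fell in CLIP in 15 of 23 cases and in WT in 7, with an interaction higher for 2 and lower for 2. Of 28 splicing factors with poison exons, 12 fell and 4 rose in CLIP, and the interaction was higher for 2 and lower for 1. Their median log2 level over CLIP siNT was -0.12, -0.55 and -0.02 in CLIP siUPF1, lowest in replicate 2. Of 35 general mRNA decay genes, 12 fell and 8 rose in CLIP and the interaction was lower for 2. The median level of these genes was 0.02, -0.37 and 0.03 in CLIP siUPF1, again lowest in replicate 2. The part of that library in the counts of falls was not tested. The interaction was lower for 1 of 9 exon junction complex genes, and higher for 1 and lower for 1 among 13 heat shock genes and among 56 replication-dependent histone genes. Of 11 fatty acid synthesis genes it was higher for 2, and of 14 reference genes for none.

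Interferon-stimulated genes did not move together. The interaction was higher for 3 of 17 and lower for 1. IFIT1 fell in CLIP, with a log2 fold change of -2.32, and had -0.67 in WT. IFI44L had 0.34 in CLIP and 2.18 in WT, at 1.25, 1.63 and 0.981 CPM in WT siUPF1, and its interaction was not called without CLIP siUPF1 replicate 2.

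The interaction was called for none of 16 mitochondrially encoded genes, and their median was 0.41 with all libraries and 0.02 without CLIP siUPF1 replicate 2.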
